A study of Mus musculus with 9 samples.

Results

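Glycolysis, lactate export and hypoxia genes were followed through 9 RNA-seq libraries of cultured mouse myoblasts, the dividing cells that give rise to muscle fibres. The set held 33 genes chosen by symbol, of 47729 genes counted, and every symbol was found. All cells were of the inbred strain FVB/N and were labelled as myoblasts from skeletal muscle, and no allele, transgene or drug was named for any group. Each of 3 groups had 3 libraries: the parental cells (PAR), FRCs from cycle 1 (FRC1) and SRCs from cycle 3 (SRC3). FRCs and SRCs were reserve cells, a name for myoblasts that remain single and undifferentiated while others fuse into myotubes. After isolation they were passaged under proliferation conditions and harvested, per the labels. The age and sex of the source animals, the number of cultures and the oxygen supply were not given in the sources used here. Whether the replicates are separate cultures is not stated in the labels, and the p-values measure the spread between these samples only, which may be technical.

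Glycolysis splits glucose into pyruvate in the cytosol and gives ATP without oxygen. Pyruvate is then either reduced to lactate and exported, or oxidised in mitochondria after passing the pyruvate dehydrogenase complex, which pyruvate dehydrogenase kinases switch off. Many of these genes are targets of HIF-1, a factor made of HIF-1α and ARNT: prolyl hydroxylases mark HIF-1α for destruction while oxygen is plentiful, and without oxygen it accumulates. Myoblasts rely on glycolysis while they divide and gain mitochondria as they differentiate, a change in which the coactivator PGC-1α (Ppargc1a) takes part.

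HIF-1 binds DNA at short cores, spelled ACGTG or GCGTG. RefSeq promoters of GRCm38.p6 were matched to all 33 members by symbol, and the 250 bases before each start were searched on both strands for these cores. A CACGTG holds ACGTG on both strands, in overlapping matches. At least 1 core was present in 26 of the 33 members (78.8%), against 38.6% of the 32841 RefSeq promoters, which cover genes of every kind. The members' windows were also richer in CG pairs, with a median of 14 per window against 6 over all promoters. A match describes the letters and not a binding site. The windows of 4 members are printed 5′ to 3′ on the gene's strand, because these lactate, hypoxia and coactivator genes carry several of the changes described further on. Capitals mark a core or its reverse complement.
Slc16a3: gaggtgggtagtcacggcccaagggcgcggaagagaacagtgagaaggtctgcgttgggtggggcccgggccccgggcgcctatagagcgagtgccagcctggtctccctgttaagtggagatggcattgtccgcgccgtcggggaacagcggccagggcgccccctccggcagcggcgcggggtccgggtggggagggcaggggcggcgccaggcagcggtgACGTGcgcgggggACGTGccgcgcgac
Vegfa: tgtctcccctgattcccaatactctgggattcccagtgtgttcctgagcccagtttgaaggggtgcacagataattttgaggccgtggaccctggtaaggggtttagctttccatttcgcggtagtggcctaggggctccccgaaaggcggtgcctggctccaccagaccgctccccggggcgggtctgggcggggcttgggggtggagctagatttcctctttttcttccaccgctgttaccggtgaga
Egln3: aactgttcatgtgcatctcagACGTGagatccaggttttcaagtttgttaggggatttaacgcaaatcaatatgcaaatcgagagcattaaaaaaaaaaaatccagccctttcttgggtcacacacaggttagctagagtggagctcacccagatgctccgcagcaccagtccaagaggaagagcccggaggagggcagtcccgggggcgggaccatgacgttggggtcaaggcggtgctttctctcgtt
Ppargc1a: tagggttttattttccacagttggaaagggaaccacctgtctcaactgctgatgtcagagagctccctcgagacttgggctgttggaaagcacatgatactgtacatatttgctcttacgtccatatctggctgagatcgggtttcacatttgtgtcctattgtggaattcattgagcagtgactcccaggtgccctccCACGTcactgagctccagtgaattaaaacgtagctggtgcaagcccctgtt
The Slc16a3 window (chr11:120948817-120949066, plus strand) held 2 ACGTG cores, beginning at -27 and -14 from the RefSeq start, which lies 587 bases from the start of the gene in GENCODE M21. The Vegfa window (chr17:46032378-46032627, minus strand) held neither core. The Egln3 window (chr12:54203875-54204124, minus strand) held 1 at -229, and the Ppargc1a window (chr5:51567726-51567975, minus strand) held 1 at -51, there as the reverse complement.

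The libraries held 13012996 to 14336279 gene counts, at which 3 counts in a library correspond to 0.2093 to 0.2305 CPM (counts relative to the library's total, scaled by TMM). Of the 33 members, 31 had enough counts to be tested, and their lowest count in any library was 30 (Ppargc1a). Markers of differentiating muscle summed to 8.26 to 10.1 CPM in PAR, 88 to 103 in FRC1 and 8.28 to 24.7 in SRC3. In FRC1 against PAR, 7 of the 8 tested were higher and 0 lower (edgeR, adjusted p under 0.05). Of all genes, 13.6 and 14.7% were higher and lower. In SRC3 against PAR 5 were higher and 1 lower, with 17.8 and 20.2% of all genes. Tmem8c was lower there, with a mean of 1.16 CPM against 5 in PAR. Of the 10 symbols listed, 9 were in the files, Mymk not being used there as a symbol. Ckm, a defining marker of mature muscle, was below 1 CPM in every library. Myoblast markers summed to 2360.1 to 2405 CPM in PAR, 2198 to 2297 in FRC1 and 1717 to 1860.3 in SRC3, and Myf5, 1 of the 7, was below 1 CPM in every library. Pericyte and smooth muscle markers summed to 11.2 to 13.8 CPM in PAR, 15.7 to 18.9 in FRC1 and 51.1 to 68.3 in SRC3. In SRC3 Cspg4 alone made 46.9 to 62.6 CPM. Notch3, of the same list, went the other way, at 10.6 to 12.9 CPM in PAR and 3.85 to 5.24 in SRC3. Its FRC1 libraries ran from 5.66 to 13.7 CPM. Rgs5, Myh11 and Cnn1 were below 1 CPM in every library. Defining markers of endothelial cells (Cdh5, Kdr), immune cells (Ptprc), adipocytes (Adipoq, Plin1), Schwann cells (Sox10) and fibroblasts (Lum, Dcn) were also below 1 CPM everywhere. Proliferation markers summed to 1528 to 1618 CPM in PAR, 1576 to 1608 in FRC1 and 1553 to 1739 in SRC3. Of these 6, Pcna (1.35-fold) and Mcm2 (1.14-fold) were higher and 0 lower in SRC3 than in PAR, with 17.8 and 20.2% of all genes. In FRC1 0 were higher and 1 lower than in PAR (Ccnb1, 1.15-fold), with 13.6 and 14.7% of all genes. Reads with several alignments, tallied outside gene counts, came to 1.161 to 1.203 alignments per gene count in PAR, 1.252 to 1.321 in FRC1 and 1.43 to 1.446 in SRC3. The part of these differences in the results below was not tested.

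Levels of the members spanned a wide range. Per kilobase of exon, the level in PAR was highest for Pkm (581 ± 21.8 CPM per kb), which makes pyruvate kinase, followed by Aldoa (490.0 ± 29.5), Ldha (386 ± 15.9), Eno3 (328 ± 8.81) and Eno1 (255 ± 8.57). This order rests on the length of all merged exons of a gene, which for Eno1 (5379 bases) is far above that of its longest coding transcript (2027 bases), so the order of the enolases is uncertain. Here and below, ± is the SD of n = 3 libraries. At the other end Pdk1, Pdk2, Eno2 and Ppargc1a stood at 1.26 to 1.75 CPM per kb. Car9, a carbonic anhydrase strongly induced by hypoxia in many cells, had 0 to 2 counts per library (up to 0.147 CPM) and was not detectable above the 3-count limit in any group. Aldoc, an aldolase of brain, stood at 0.306 to 0.771 CPM. Only uniquely aligned reads were counted, and 82.5% of the 50-base windows of the Gapdh transcript, 72.2% of Eno1, 68% of Pgk1, 62.4% of Bnip3, 41.5% of Pgam1, 34.4% of Pkm, 27% of Ldhb and 25.3% of Gpi1 also occur in transcripts of other genes, so that the levels of these members are uncertain and may be too low. Pfkp overlaps the antisense gene Pitrm1 by 748 bases, Pdha1 overlaps Map3k15 by 603 and Pfkm overlaps Senp1 by 18. The strand setting of the counting is not given in the sources used here, so how reads in these overlaps were counted is uncertain. Over all libraries Pitrm1 had 30357 counts and Senp1 11569. Map3k15 had only 30, against 19031 for Pdha1 in PAR alone.

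**Figure D1:**
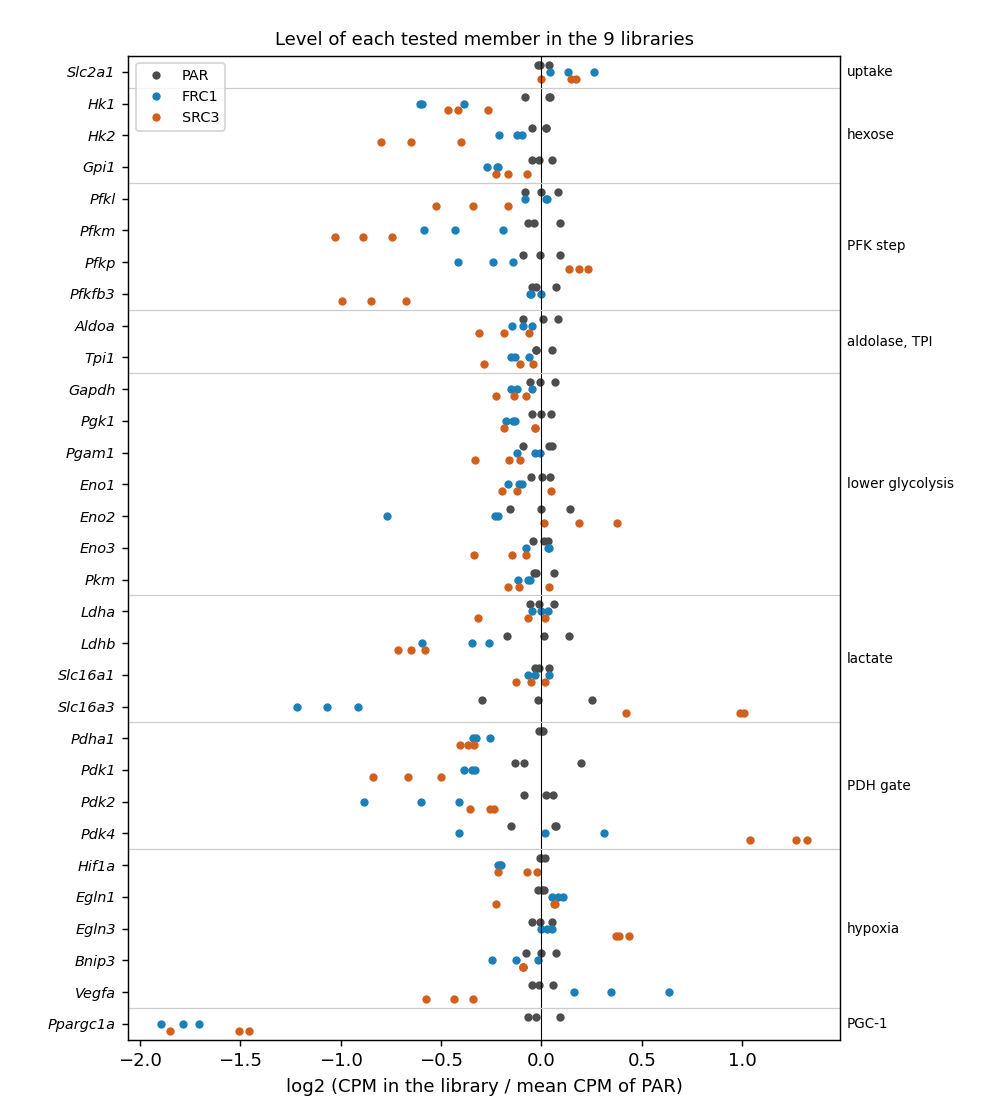
Level of each of the 31 tested members in each library, as log2 of its CPM over the mean CPM of PAR (x axis), with genes ordered by role (y axis) and 1 point per library coloured by group. The most abundant enzymes, such as Pkm, Ldha and Eno1, lie close to 0 in all 9 libraries, while Slc16a3, Pdk4, Vegfa and Ppargc1a spread widely between groups.

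In FRC1 against PAR, 13 of the 31 tested members passed the test (41.9%, against 28.3% of all 12540 genes tested): 12 were lower, against 14.7% of all genes, and 1 was higher, against 13.6%. The median log2 fold change of the members was -0.12, against 0.003 over all genes. In these bulk samples, fewer cells of a type and less RNA per cell cannot be told apart. At least 1.5-fold changes were found in 3 members (9.68%), against 6.28% of all genes: Ppargc1a, Slc16a3 and Pdk2, all lower in FRC1. Vegfa was the member that was higher. Adjusted p for genes are those of edgeR (quasi-likelihood), by Benjamini-Hochberg over all 12540 genes, here and below, with a threshold of 0.05. Leaving out PAR replicate 1 reduced the count of members from 13 to 8 and that of all genes from 3550 to 2495.

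In SRC3 against PAR, 20 of the 31 passed (64.5%, against 37.9% of all genes): 16 were lower, against 20.2% of all genes, and 4 were higher, against 17.8%. The members that were higher were Pfkp, Slc16a3, Pdk4 and Egln3. The median log2 fold change was -0.15, against 0.006 over all genes. Changes of at least 1.5-fold were found in 8 members (25.8%), against 12.4% of all genes, and the mean of these 8 in PAR was at most 126 CPM. By contrast, Aldoa, Eno1, Pkm and Ldha, each above 1000 CPM in PAR, differed by at most 1.14-fold in any of the 3 comparisons. Without PAR replicate 2 the count of members fell from 20 to 13, and that of all genes from 4758 to 3948.

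Between the reserve populations, SRC3 against FRC1, 11 members passed (35.5%, against 33.5% of all genes): 5 were higher in SRC3, against 15.5% of all genes, and 6 were lower, against 18%. This share was near that of all genes. FRCs were all of cycle 1 and SRCs all of cycle 3, so the kind of reserve cell and the cycle cannot be told apart. Changes of at least 1.5-fold were found in 5 members (16.1%), Pfkfb3, Eno2, Slc16a3, Pdk4 and Vegfa, against 11.1% of all genes. All 3 comparisons share libraries, FRC1 and SRC3 being set against the same PAR. Against PAR, Pfkp and Slc16a3 were lower in FRC1 and higher in SRC3, and Vegfa was higher in FRC1 and lower in SRC3. SRC3 replicate 3 had the lowest level of its group in 18 of the 31 members and PAR replicate 3 in 18, while SRC3 replicate 2 was highest in 15 and PAR replicate 2 in 17. These ranks were not computed over all genes, so a shift of the whole library cannot be told apart from one of the members.

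**Figure D2:**
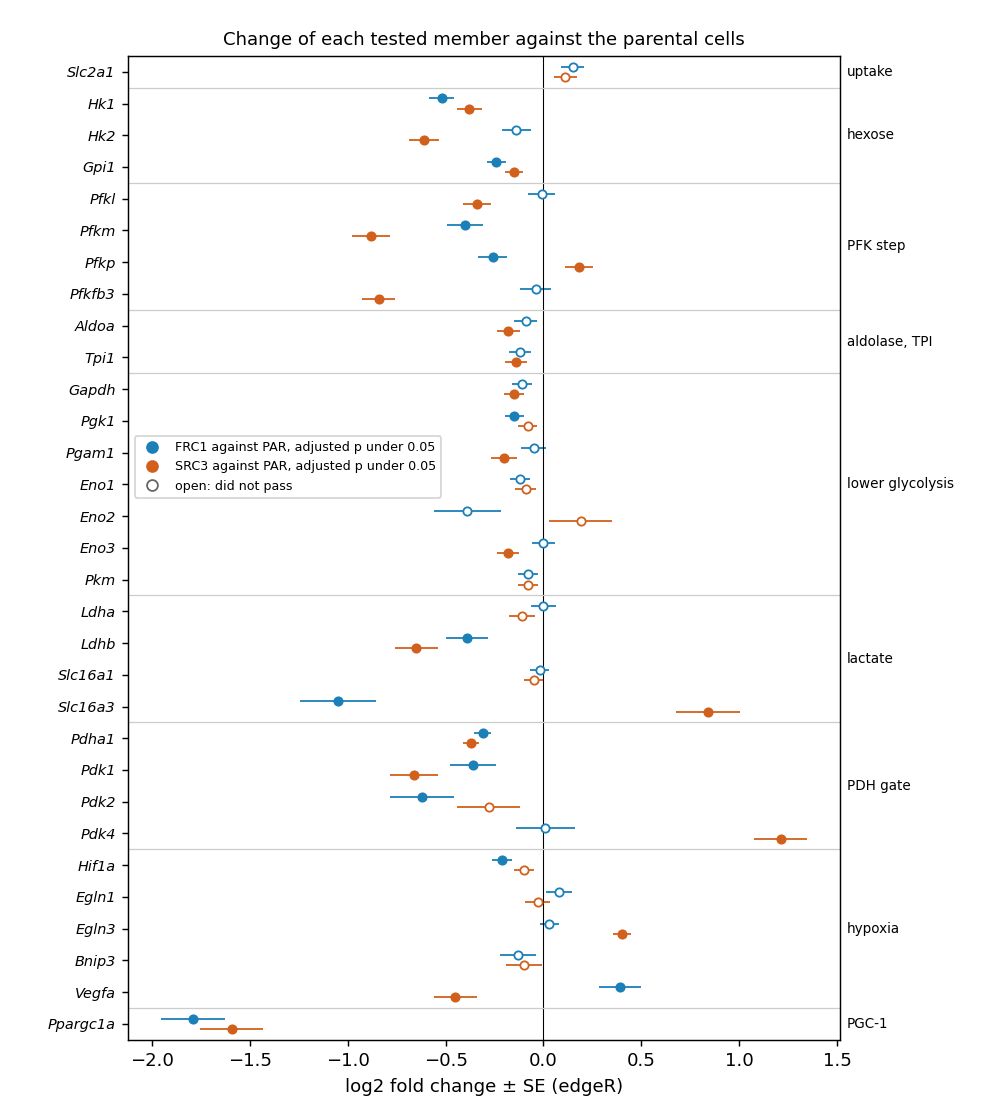
Log2 fold change ± SE (x axis) of each tested member (y axis, ordered by role) in FRC1 and in SRC3, each against PAR; filled points passed at adjusted p under 0.05 and open points did not. Most members lie left of 0 by a small amount, and Slc16a3, Pfkp and Vegfa lie on opposite sides of 0 in the FRC1 and SRC3 comparisons.

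Glucose uptake and the hexokinase step came first in the pathway. Slc2a1, the transporter GLUT1, stood at 166 ± 3.48 CPM in PAR, 184 ± 14.4 in FRC1 and 179 ± 11.5 in SRC3 and did not pass in any comparison (adjusted p 0.071, 0.16 and 0.66). It did pass in FRC1 against PAR without FRC1 replicate 1 (0.016) or SRC3 replicate 3 (0.038), with no filter on low counts (0.048) or with only FRC1 and PAR fitted (0.037), and in SRC3 against PAR without SRC3 replicate 3 (0.035). Hexokinases trap glucose in the cell by phosphorylating it. Hk1, the widely expressed form, measured 201, 200.3 and 184 CPM in the PAR libraries, 149.5, 128 and 129 in FRC1, and 141, 162 and 146 in SRC3. Every reserve cell library lay below every parental one. Hk1 was 1.44-fold lower in FRC1 (adjusted p = 7.4e-06) and 1.3-fold lower in SRC3 (8.9e-05). SRC3 against FRC1 did not pass for Hk1 (0.1), but did without FRC1 replicate 1 (0.012). Hk2, the insulin-responsive muscle form, measured 128, 128 and 122 CPM in the PAR libraries, 116, 118 and 109 in FRC1, and 80.3, 95.6 and 72.4 in SRC3. All SRC3 libraries lay below the other 6, and the fall was 1.52-fold against PAR (adjusted p = 6.8e-06) and 1.38-fold against FRC1 (0.00013). Between FRC1 and PAR the Hk2 difference of 1.1-fold did not pass (0.18), although it did without SRC3 replicate 2 (0.042) or with only FRC1 and PAR fitted (0.034). Gpi1, glucose-6-phosphate isomerase, was lower in FRC1 (615 ± 12.2 against 724 ± 25.5 CPM, adjusted p = 0.0009) and in SRC3 (652 ± 35.7, adjusted p = 0.015). The SRC3 call of Gpi1 was lost without PAR replicate 2 (0.1), SRC3 replicate 1 (0.06) or SRC3 replicate 3 (0.054).

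The phosphofructokinase step, where flux through glycolysis is chiefly regulated, had changes in both directions. All 4 of its members passed in SRC3 against PAR, 3 lower and 1 higher, where 20.2% of all genes were lower and 17.8% higher. All 4 also passed in SRC3 against FRC1 in the same directions, where 18% of all genes were lower and 15.5% higher. Pfkm, the muscle isozyme, measured 38.8, 43.3 and 39.6 CPM in the PAR libraries, 35.5, 30.1 and 27.1 in FRC1, and 21.9, 24.2 and 19.9 in SRC3. The 3 groups did not overlap, with PAR highest and SRC3 lowest. Its log2 fold change was -0.40 ± 0.0913 (SE) in FRC1 (adjusted p = 0.0031) and -0.88 ± 0.0954 in SRC3 (4.3e-07). Pfkl, the liver isozyme, was at 167 ± 9.26 CPM in PAR and 166 ± 7.01 in FRC1, and was 1.26-fold lower in SRC3 than in PAR (132 ± 16.2 CPM, adjusted p = 0.0014). Pfkp, the platelet isozyme, measured 58.1, 54.2 and 51 CPM in the PAR libraries, 49.4, 40.8 and 46.1 in FRC1, and 63.9, 61.9 and 59.8 in SRC3. Here FRC1 was lowest and SRC3 highest, with no overlap between groups. Pfkp was 1.2-fold lower in FRC1 than in PAR (adjusted p = 0.01), 1.14-fold higher in SRC3 than in PAR (0.046) and 1.36-fold higher in SRC3 than in FRC1 (6e-05). Its rise over PAR was lost without PAR replicate 2 (0.099), PAR replicate 3 (0.17), replicate 1 of SRC3 (0.13) or replicate 2 of SRC3 (0.059), as well as under DESeq2 (0.072), and its fall in FRC1 without PAR replicate 1 (0.068) or FRC1 replicate 2 (0.062). Pfkfb3, which makes fructose 2,6-bisphosphate, the strongest activator of phosphofructokinase, measured 31.4, 34.1 and 31.8 CPM in the PAR libraries, 31.1, 31.3 and 32.3 in FRC1, and 16.3, 20.3 and 18 in SRC3. SRC3 lay far below the other groups, which overlapped. Pfkfb3 was 1.79-fold lower in SRC3 than in PAR (adjusted p = 1.4e-07) and 1.74-fold lower than in FRC1 (3.3e-07).

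From aldolase to pyruvate kinase the changes were small. In SRC3 against PAR, 5 of the 9 tested enzymes of this stretch were lower, against 20.2% of all genes: Aldoa (1.14-fold, adjusted p = 0.018), Tpi1 (1.1-fold, 0.047), Gapdh (1.11-fold, 0.03), Pgam1 (1.15-fold, 0.022) and the muscle enolase Eno3 (1.13-fold, 0.016). Eno3 was also lower in SRC3 than in FRC1 (1.13-fold, 0.019). In FRC1 against PAR, Pgk1, which makes the first ATP of the pathway, was the member of this stretch that passed (1.11-fold lower, 0.027). None of these calls held in every alternative fit. The Aldoa call was lost without PAR replicate 1 (0.061), PAR replicate 2 (0.11), replicate 1 of SRC3 (0.059) or replicate 3 of SRC3 (0.069), and Aldoa passed in SRC3 against FRC1 without SRC3 replicate 2 (0.039). The Tpi1 call was lost without PAR replicates 1, 2 or 3, FRC1 replicates 2 or 3, or SRC3 replicates 1 or 3 (0.055 to 0.25). It was also lost with RLE size factors (0.05), library sizes alone (0.054), a filter of 5 CPM in 3 libraries (0.073), only SRC3 and PAR fitted (0.066) and DESeq2 (0.061), and so held in 5 of 17 alternatives. In FRC1 against PAR Tpi1 passed without SRC3 replicate 3 (0.041) or with only those groups fitted (0.031). Gapdh lost its call without PAR replicate 1 (0.083), PAR replicate 2 (0.17), FRC1 replicate 3 (0.053) or SRC3 replicate 1 (0.19), and Pgam1 without PAR replicate 2 (0.099), PAR replicate 3 (0.092) or SRC3 replicate 3 (0.12). The Eno3 difference from PAR did not pass without PAR replicate 1 (0.076), PAR replicate 2 (0.057) or SRC3 replicate 3 (0.078), nor did that from FRC1 without FRC1 replicate 1 (0.06), FRC1 replicate 3 (0.11) or SRC3 replicate 3 (0.092). The Pgk1 call needed PAR replicates 1 and 2 and every FRC1 replicate (0.051 to 0.11 without each).

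The levels of Eno1 and Pkm stayed close together across groups, while Eno2 differed between the reserve populations. Eno1, the ubiquitous enolase, was at 1372 ± 46.1 CPM in PAR, 1259 ± 31.3 in FRC1 and 1292 ± 113 in SRC3 (adjusted p 0.091, 0.22 and 0.64 in the 3 comparisons), and passed in FRC1 against PAR without SRC3 replicate 2 (0.022) or SRC3 replicate 3 (0.038), with no filter (0.045) or with only FRC1 and PAR fitted (0.015), and in SRC3 against PAR without SRC3 replicate 2 (0.013). Eno2, the neuronal enolase, was scarce, at 6.57, 5.35 and 5.96 CPM in the PAR libraries, 5.07, 3.5 and 5.13 in FRC1 and 6.01, 6.78 and 7.75 in SRC3. Its FRC1 and SRC3 libraries did not overlap. Eno2 was 1.5-fold higher in SRC3 than in FRC1 (adjusted p = 0.011), a call lost without FRC1 replicate 2 (0.062). Pkm was at 2903 ± 109 CPM in PAR, 2749.5 ± 59.9 in FRC1 and 2752 ± 202 in SRC3 and did not pass (0.27, 0.24 and 0.99), except in SRC3 against PAR without SRC3 replicate 2 (0.027). Summed over the 18 enzymes from hexokinase to lactate dehydrogenase, the level was 10048 ± 378 CPM in PAR, 9387 ± 160 in FRC1 and 9170.4 ± 720 in SRC3, and 4 genes with over 1000 CPM each carried most of it.

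Lactate dehydrogenase and the lactate transporters came next. Ldha, the form that favours the reduction of pyruvate to lactate, was at 1277 ± 52.6 CPM in PAR, 1272 ± 34.2 in FRC1 and 1179 ± 138 in SRC3, with adjusted p of 0.97, 0.19 and 0.23. Without SRC3 replicate 2, Ldha passed in SRC3 against PAR (0.03) and against FRC1 (0.038). Ldhb, the heart form, measured 20.6, 16.6 and 18.9 CPM in the PAR libraries, 15.6, 12.4 and 14.7 in FRC1, and 11.4, 11.9 and 12.5 in SRC3. PAR lay above both reserve populations, which overlapped by a narrow margin. Ldhb was 1.31-fold lower in FRC1 (adjusted p = 0.0093, and 0.066 or 0.056 without PAR replicate 1 or FRC1 replicate 2) and 1.57-fold lower in SRC3 (8.9e-05). SRC3 against FRC1 did not pass for Ldhb (0.09), but did without FRC1 replicate 2 (0.036).

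Slc16a1 encodes MCT1, a transporter that carries lactate both ways, and it was even across groups at 224 ± 5.89, 221 ± 8.01 and 216 ± 11 CPM (adjusted p of 0.83, 0.45 and 0.66). Slc16a3 (ENSMUSG00000025161, chr11:120948480-120960868 on GRCm38) encodes MCT4, the exporter typical of glycolytic muscle. It measured 15.5, 18.7 and 12.8 CPM in the PAR libraries, 8.33, 7.48 and 6.76 in FRC1, and 31.6, 31.2 and 21 in SRC3. FRC1 was lowest, PAR intermediate and SRC3 highest, with no overlap. Against PAR, Slc16a3 was 2.08-fold lower in FRC1 (log2 fold change -1.05 ± 0.195, adjusted p = 0.0018) and 1.79-fold higher in SRC3 (0.84 ± 0.165, adjusted p = 0.0016). Between the reserve populations the difference was 3.72-fold (1.89 ± 0.184, adjusted p = 6.4e-06), the largest of any member in that comparison. SRC3 replicate 3 lay below the other SRC3 libraries, and with each library left out in turn the rise over PAR was 0.72 to 1.01 on the log2 scale and passed each time.

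**Figure D3:**
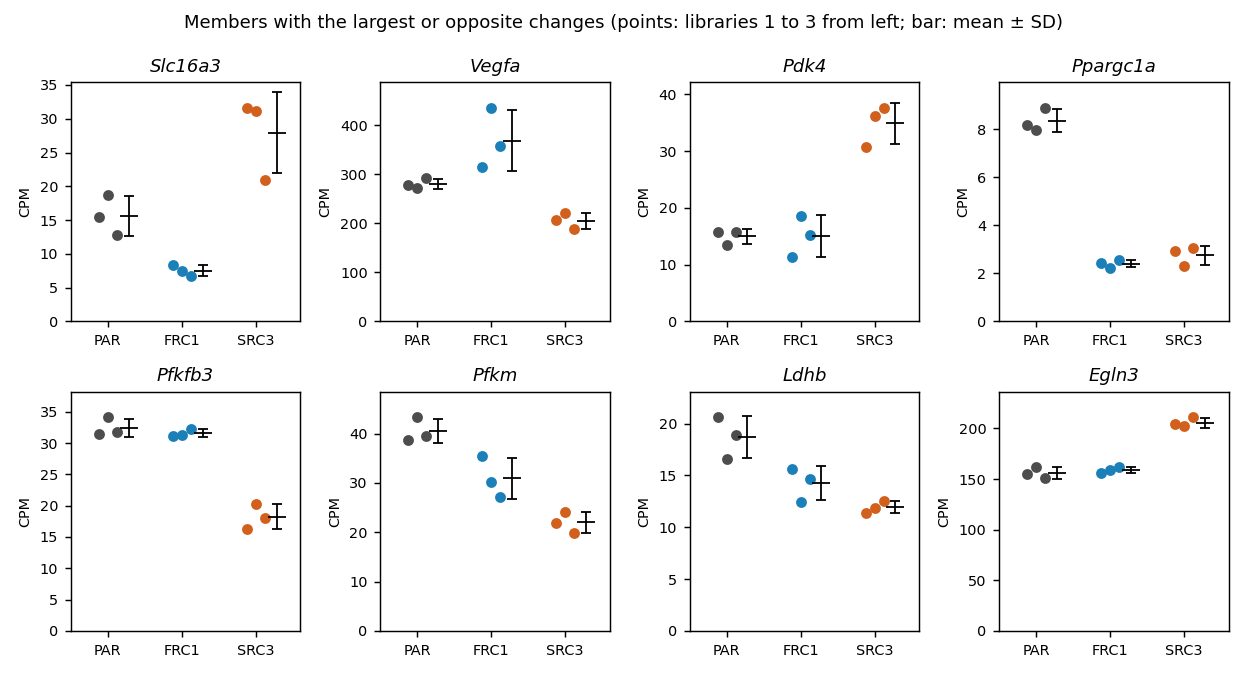
Level in CPM (y axis, starting at 0) of 8 members in the 3 libraries of each group (points) with mean ± SD (bars). Slc16a3 is lowest in FRC1 and highest in SRC3, Vegfa shows the opposite order, Pdk4 and Egln3 are high in SRC3 alone among the 3 groups, and Ppargc1a is low in both reserve populations.

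The pyruvate dehydrogenase gate changed at both the enzyme and its kinases. Pdha1, the catalytic E1α subunit, measured 459.6, 456 and 461 CPM in the PAR libraries, 384, 366 and 363 in FRC1, and 356, 347 and 364 in SRC3. Each reserve library was far below each parental one. The fall was 1.24-fold in FRC1 (adjusted p = 2.9e-05) and 1.29-fold in SRC3 (1.1e-06). Pdk1, a kinase induced by HIF-1, was at 13.6 ± 1.74 CPM in PAR, 10.6 ± 0.207 in FRC1 and 8.6 ± 1.02 in SRC3, and was lower in both (adjusted p = 0.029 and 0.00022). The FRC1 call of Pdk1 was lost with DESeq2 (0.067) and without PAR replicate 1 (0.19), FRC1 replicate 2 (0.075) or FRC1 replicate 3 (0.075), and SRC3 against FRC1 passed without SRC3 replicate 2 (0.035). Pdk2 was 1.54-fold lower in FRC1 (3.6 ± 0.588 against 5.52 ± 0.279 CPM, adjusted p = 0.0079, and 0.054 without FRC1 replicate 3) and did not pass in SRC3 (4.55 ± 0.201 CPM, 0.18). Pdk4 (ENSMUSG00000019577, chr6:5483351-5496309), the kinase raised in muscle by fasting, measured 15.8, 13.5 and 15.7 CPM in the PAR libraries, 11.3, 18.6 and 15.2 in FRC1, and 30.8, 36.2 and 37.6 in SRC3. PAR and FRC1 overlapped, and all SRC3 libraries were far above them. Pdk4 was 2.32-fold higher in SRC3 than in PAR (log2 fold change 1.21 ± 0.137, adjusted p = 6.1e-06) and 2.31-fold higher than in FRC1 (7.4e-06), the largest rise over PAR of any member.

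Other genes of pyruvate entry into mitochondria formed a list of 10 that were all tested. In FRC1 against PAR 5 were lower and 0 higher, with 14.7 and 13.6% of all genes lower and higher (median log2 fold change of the list -0.22, against 0.003 over all genes). In SRC3 against PAR 2 were lower and 1 higher, with 20.2 and 17.8% of all genes (-0.01 against 0.006). In SRC3 against FRC1 6 were higher and 0 lower, with 15.5 and 18% of all genes higher and lower (0.21). Pdp1, the phosphatase that reactivates the complex, was at 45.3 ± 1.78 CPM in PAR, 26.3 ± 5.85 in FRC1 (1.72-fold lower, adjusted p = 7.5e-05) and 35.8 ± 0.329 in SRC3 (1.26-fold lower, 0.018). Pdhb, the partner of Pdha1 in E1, was at 104 ± 4.66, 86.4 ± 1.71 and 119 ± 1.49 CPM, lower in FRC1 (0.00081) and higher in SRC3 (0.005), whereas Pdha1 was lower in both. Dld, the shared E3 subunit, was lower in FRC1 (204 ± 11 against 250.3 ± 11.3 CPM, 0.00051), as was the kinase Pdk3 (34.2 ± 1.84 against 40.0 ± 0.616 CPM, 0.016). Mpc1, a subunit of the mitochondrial pyruvate carrier, was higher in SRC3 than in FRC1 (7.26 ± 1.22 against 5.33 ± 0.333 CPM, 0.034), and Pcx, pyruvate carboxylase, was lower in SRC3 than in PAR (8.4 ± 0.673 against 11.6 ± 0.217 CPM, 0.0039). Of 25 other glycolysis genes, 10 were tested. In FRC1 against PAR 1 was higher and 2 lower, with 13.6 and 14.7% of all genes higher and lower. The counts were the same in SRC3 against PAR, with 17.8 and 20.2% of all genes. In SRC3 against FRC1 0 were higher and 2 lower, with 15.5 and 18% of all genes. Gpd2, the mitochondrial arm of the glycerol phosphate shuttle, which passes electrons from cytosolic NADH to the respiratory chain, was at 236 ± 5.42 CPM in PAR, 203 ± 10.7 in FRC1 and 99.8 ± 2.31 in SRC3. It was lower in FRC1 (1.16-fold, 0.0027) and in SRC3 (2.36-fold, 1.8e-13). Galm, which interconverts the anomers of sugars, was lower in both (0.049 and 0.021), and Adpgk, a glucokinase that uses ADP, was higher in both (2.9e-05 and 0.0018).

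Isozyme make-up was computed per library from CPM per kilobase of exon. Hk2 made up 48 ± 0.58% of hexokinase in PAR, 54.7 ± 2.07% in FRC1 and 44 ± 2.3% in SRC3, Hk1 being the rest. Pfkm made up 29.4 ± 0.961, 24.6 ± 2.44 and 21.2 ± 0.157% of phosphofructokinase and Pfkp 9.85 ± 0.656, 9.04 ± 0.443 and 14.9 ± 1.28% in the same order. Thus the muscle isozyme was a smaller part in both reserve populations, and the platelet isozyme a larger part in SRC3. Slc16a3 made up 5.5 ± 0.969% of the summed lactate transporters in PAR, 2.76 ± 0.334% in FRC1 and 9.71 ± 1.97% in SRC3. Pdk4 made up 18.3 ± 1.25, 21.1 ± 3.49 and 35.2 ± 3.05% of the kinases, with Pdk3, which is not among the members, the most abundant of them per kilobase. Ldhb stayed within 1.91 to 3.31% of lactate dehydrogenase in all libraries, and Eno3 within 53.7 to 58.7% of enolase. These shares depend on the exon length assigned to each gene. The merged exons of Pfkp span 13401 bases against 4145 in its longest coding transcript, and those of Eno1 span 5379 against 2027. Not divided by length, Pfkm made up 15.5, 12.7 and 10.2% of phosphofructokinase and Pfkp 20.8, 18.7 and 28.7% in PAR, FRC1 and SRC3, so that Pfkp stood above Pfkm. On that scale Eno3 made up 27.3 to 31.5% of enolase and Eno1 was the larger part, and which enolase was more abundant is uncertain. The fall of the Pfkm share and the larger Pfkp share in SRC3 were present on both scales. Of 54 two-sided exact permutation tests between pairs of groups, 36 reached the smallest p that 3 against 3 allows, 0.1, and the lowest adjusted p was 0.15, so that these tests could not pass the threshold. Shares within a family sum to 100% and are not independent.

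**Figure D4:**
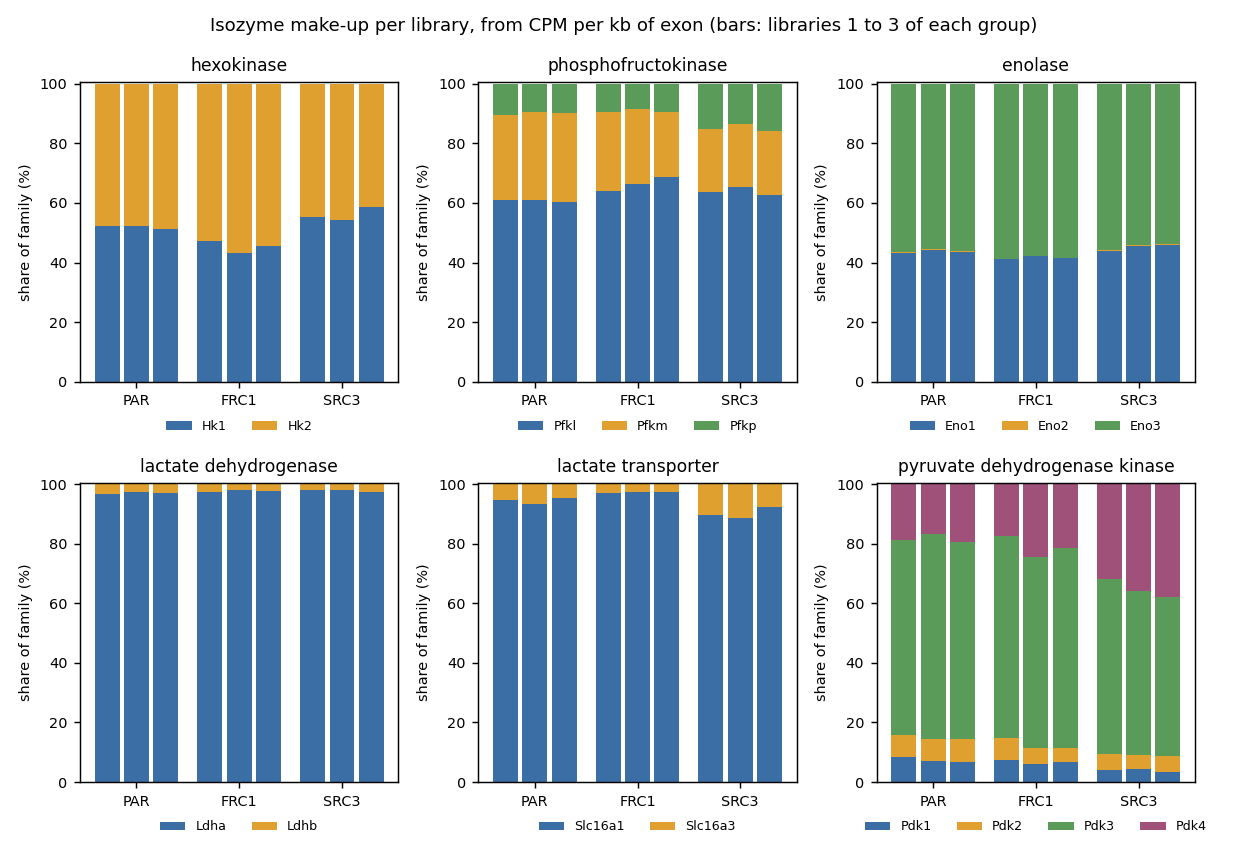
Share of each isozyme in its family (y axis, percent) for hexokinase, phosphofructokinase, enolase, lactate dehydrogenase, lactate transporters and pyruvate dehydrogenase kinases, with 1 stacked bar per library in each group. The Pfkp, Slc16a3 and Pdk4 segments are thickest in the SRC3 libraries, and the Eno2 segment, below 0.34% throughout, is barely visible.

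Members of the hypoxia response changed in both directions. Hif1a, the oxygen-regulated subunit of HIF-1, measured 227, 224 and 223 CPM in the PAR libraries, 194, 195 and 193 in FRC1, and 221, 193 and 213 in SRC3. FRC1 lay well below PAR, and SRC3 ran from the FRC1 level to just under PAR. Hif1a was 1.16-fold lower in FRC1 (adjusted p = 0.0037) and did not pass in SRC3 (0.12). It was higher in SRC3 than in FRC1 only in the fit without SRC3 replicate 2 (0.0062; 0.11 with all libraries). Messenger levels do not measure HIF-1α protein, which is regulated after translation. Egln1, the main prolyl hydroxylase, did not pass in any comparison (adjusted p 0.37, 0.77 and 0.21; group means of 91.8 to 99.1 CPM). Egln3 (ENSMUSG00000035105), a hydroxylase that is itself a HIF target, measured 155, 162 and 151 CPM in the PAR libraries, 156, 159 and 162 in FRC1, and 204, 202 and 211 in SRC3. PAR and FRC1 overlapped and SRC3 lay above both. Egln3 was 1.32-fold higher in SRC3 than in PAR (log2 fold change 0.40 ± 0.0472, adjusted p = 1.3e-06) and 1.29-fold higher than in FRC1 (3.6e-06). Bnip3, a HIF target of mitophagy, was level at 19.2 ± 1, 17.6 ± 1.43 and 18 ± 0.0342 CPM (adjusted p of 0.31, 0.42 and 0.82).

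Vegfa (ENSMUSG00000023951, chr17:46016993-46032369), the angiogenic growth factor, measured 278, 271 and 292 CPM in the PAR libraries, 314, 435 and 357 in FRC1, and 207, 221 and 188 in SRC3. FRC1 was highest and SRC3 lowest, with no overlap, and the FRC1 libraries were the most scattered. Vegfa was 1.31-fold higher in FRC1 than in PAR (log2 fold change 0.39 ± 0.108, adjusted p = 0.024), 1.37-fold lower in SRC3 than in PAR (-0.45 ± 0.11, adjusted p = 0.01) and 1.8-fold lower in SRC3 than in FRC1 (-0.84 ± 0.109, adjusted p = 0.00027). The rise in FRC1 lost its call when only FRC1 and PAR were fitted (0.084) and without PAR replicate 1 (0.072), PAR replicate 2 (0.08), PAR replicate 3 (0.052), FRC1 replicate 3 (0.053) or SRC3 replicate 2 (0.051). The fall in SRC3 against PAR lost it without SRC3 replicate 3 (0.066). Both falls and the rise kept their sign in every alternative.

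Other genes of the HIF pathway, 26 tested of 31 listed, moved in both directions in each comparison. In FRC1 against PAR 10 were higher and 7 lower (median log2 fold change 0.04), where 28.3% of all genes passed. Both in SRC3 against PAR (0.07) and in SRC3 against FRC1 (-0.04), 7 were higher and 7 lower, where 37.9 and 33.5% of all genes passed. Alternatives were not run for these genes. Lox, the collagen crosslinking oxidase, was higher in FRC1 (11.8, 22.9 and 13.4 against 6.15, 5.97 and 8.02 CPM, 2.39-fold, adjusted p = 0.0058), with SRC3 at 4.4, 5.47 and 3.57 CPM, 3.59-fold below FRC1 (0.00065). P4ha2, a collagen prolyl hydroxylase, was 1.83-fold higher in FRC1 (1.5e-06) and Angptl4, an inhibitor of lipoprotein lipase, 1.76-fold higher (0.00065). Pgf, a relative of Vegfa, was higher in FRC1 (0.012) and lower in SRC3 (0.049) than in PAR, the same signs as Vegfa. Ndrg1, a stress-responsive gene, was lower in FRC1 (1.74-fold, 1.5e-05) and in SRC3 (1.33-fold, 0.0035). Arnt, the partner of HIF-1α, was at 54.1 ± 0.245 CPM in PAR, 46.3 ± 2.54 in FRC1 (0.0098) and 38.1 ± 1.01 in SRC3 (2.4e-06). Stc2, a secreted glycoprotein, was 2.19-fold higher in SRC3 than in PAR (41.8 ± 2.87 against 19.1 ± 1.8 CPM, 2.7e-09), and Ankrd37 (0.022) and Mxi1 (0.00012) were also higher there.

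**Figure D5:**
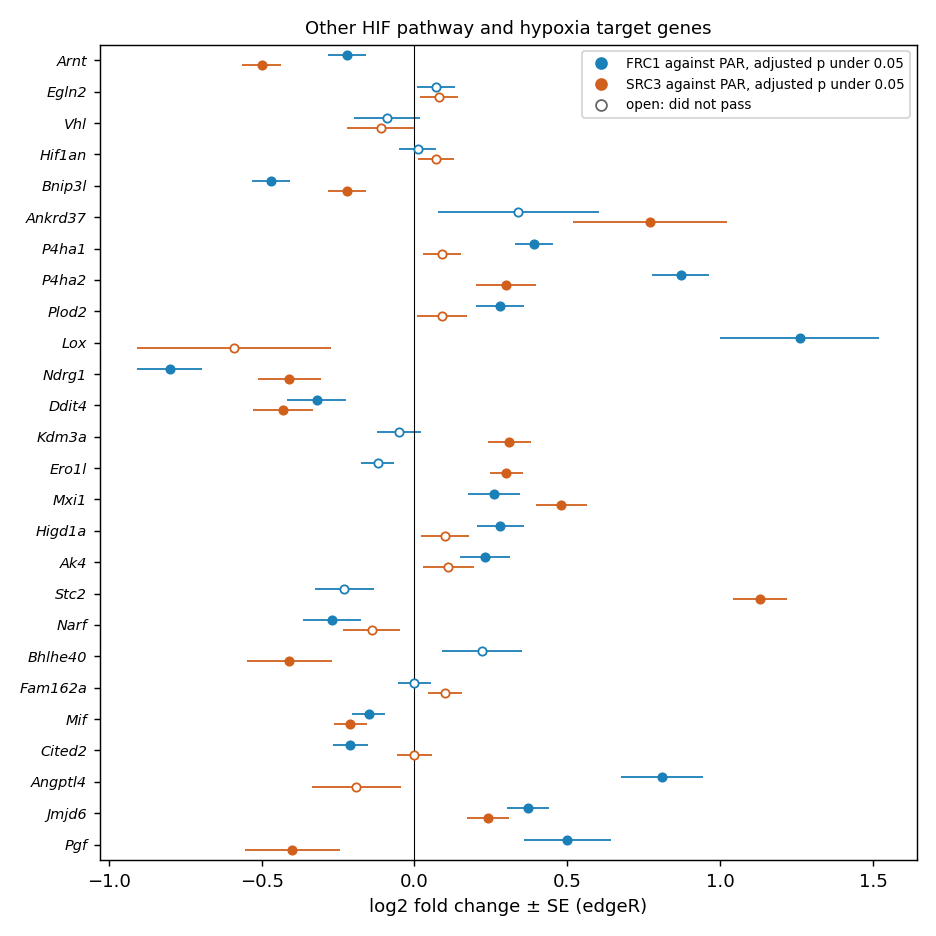
Log2 fold change ± SE (x axis) of 26 tested genes of the HIF pathway outside the member list (y axis) in FRC1 and in SRC3, each against PAR; filled points passed at adjusted p under 0.05. Points lie on both sides of 0 in each comparison, with Lox and P4ha2 far to the right in FRC1 and Stc2 in SRC3.

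Ppargc1a (ENSMUSG00000029167, chr5:51454250-51567726) had the largest change of any member against PAR. It measured 8.18, 7.96 and 8.88 CPM in the PAR libraries, 2.42, 2.24 and 2.56 in FRC1, and 2.93, 2.31 and 3.04 in SRC3. Both reserve populations lay far below PAR and overlapped each other. The fall was 3.46-fold in FRC1 (log2 fold change -1.79 ± 0.163, adjusted p = 2.1e-07) and 3.01-fold in SRC3 (-1.59 ± 0.161, adjusted p = 1.5e-07), and SRC3 against FRC1 did not pass (0.48). Its relatives and partners moved less. For the PGC-1 family and mitochondrial biogenesis, 11 of 14 listed genes were tested. In FRC1, 3 were higher and 1 lower than in PAR, with 13.6 and 14.7% of all genes higher and lower. In SRC3, 4 were higher and 1 lower than in PAR, with 17.8 and 20.2% of all genes. Set against FRC1, 5 were higher and 1 lower in SRC3, with 15.5 and 18% of all genes. Pprc1, of the same family, was higher in FRC1 than in PAR (217 ± 6.55 against 192 ± 5.59 CPM, adjusted p = 0.018). It was lower in SRC3 than in FRC1 (0.00044) and did not pass in SRC3 against PAR (0.15). Ppargc1b, which encodes PGC-1β, was the gene lower in both reserve populations than in PAR (22.2 ± 2.19, 17.3 ± 1.94 and 17.7 ± 2.51 CPM, adjusted p = 0.02 and 0.022). Nrf1, a factor for nuclear genes of the respiratory chain, was higher in both (0.017 and 0.004), as was the fatty acid receptor Ppard (0.035 and 0.0002). The deacetylases Sirt1 (53.1 ± 4.19 against 40.4 ± 2.75 CPM, 0.00021) and Sirt3 (11.4 ± 0.539 against 8.93 ± 0.314 CPM, 0.018) were higher in SRC3 than in PAR.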

How the data were processed

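Polyadenylated RNA of 9 libraries was sequenced as stranded single reads of 50 cycles, per the labels' protocols. The authors deposited raw read counts per gene, as whole numbers. HISAT2 2.1.0, HTSeq 0.9.1, DESeq2 and GRCm38 are named in the submitters' processing notes. The 5 summary lines of each file name no gene and stayed out (reads in no gene were 5.923 to 7.917% of uniquely aligned reads, ambiguous ones 1.175 to 1.214%). Gene models were GENCODE M21.

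In R 4.3.3 with edgeR 4.0.16, filterByExpr kept 12540 genes. All libraries entered 1 quasi-likelihood fit with TMM factors and the group as its term, with two-sided tests. Alternatives included DESeq2 1.42.0 and limma 3.58.1 (voom). The pipeline was tested on simulated data. The replicates of a group differed by more than sampling noise (chi-square per degree of freedom 1.81 to 7.47).

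Members and lists were chosen with earlier results of these data known. Besides all members, the text names up to 4 genes per related list and comparison, those with the largest change among genes that passed with at least 1 CPM.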

Additional observations from a re-analysis of the deposited data

Results flagged for a closer look

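The test of SRC3 against FRC1 was also the test of whether the effects of the reserve populations against the shared PAR libraries differ. For 3 members those effects passed in opposite directions. They are listed because of that, so the test of their difference and the lack of overlap between the groups are a description and add no support. For Slc16a3 the difference in log2 fold change was 1.89 (edgeR, adjusted p = 6.4e-06), higher in SRC3. For Pfkp it was 0.45 (6e-05), higher in SRC3. For Vegfa it was -0.84 (0.00027), lower in SRC3. Of the effects against PAR, the Vegfa rise in FRC1 passed in 11 of 17 alternatives and its fall in SRC3 in 16, the Pfkp fall in FRC1 in 15 and its rise in SRC3 in 12, and both Slc16a3 effects in 17.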

How the results depend on the processing

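Over 17 alternatives, 7 of 13 members called in FRC1 against PAR, 12 of 20 in SRC3 against PAR and 9 of 11 in SRC3 against FRC1 passed every time. How many of all called genes passed every time is not given here, so the members' stability cannot be set against it. With each library left out in turn, 8 to 16 members were called in FRC1 against PAR (8 without PAR replicate 1). In SRC3 against PAR the range was 13 to 22 (13 without PAR replicate 2). All genes called numbered 2327 to 3987 in FRC1 against PAR (2327 without FRC1 replicate 3) and 3845 to 4924 in SRC3 against PAR. Every change of sign was in a member that had not passed. With library sizes alone, FRC1 against PAR gave 0.01 for Eno3 and 4.1e-03 for Ldha (log2). For Pdk4 in FRC1 against PAR, the replicate block gave -0.01 and voom -0.02. For Pkm in SRC3 against FRC1, no filter gave -8.0e-04, the replicate block -1.5e-03 and voom -1.3e-03. Leaving out libraries gave, in FRC1 against PAR, -0.06 to 0.02 for Pfkl, -0.02 to 0.03 for Eno3, -0.03 to 0.02 for Ldha, -0.05 to 0.01 for Slc16a1 and -0.18 to 0.17 for Pdk4. In SRC3 against PAR it gave -0.07 to 0.07 for Egln1. In SRC3 against FRC1 it gave -0.09 to 0.03 for Slc2a1, -0.07 to 0.04 for Tpi1, -0.08 to 0.01 for Gapdh, -0.03 to 0.09 for Eno1, -0.05 to 0.04 for Pkm, -0.06 to 0.01 for Slc16a1 and -0.01 to 0.10 for Bnip3. The causes were not tested. Same-numbered libraries did not deviate together (correlations of -0.07 to 0.118), and with the replicate block 13, 20 and 11 members were called. That fit called 3560, 4798 and 4221 of all 12540 genes in the same order of comparisons. Shares of isozymes not divided by length also gave 36 of 54 tests at the smallest p. Depth limits Car9 and Aldoc, which were not tested.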

Other observations

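The pentose phosphate pathway branches from glycolysis at glucose 6-phosphate and supplies NADPH and ribose. All 7 listed genes were tested (edgeR, adjusted p under 0.05). In FRC1, 1 was higher and 1 lower than in PAR, with 13.6 and 14.7% of all genes higher and lower. In SRC3, 0 were higher and 1 lower than in PAR, with 17.8 and 20.2% of all genes. Set against FRC1, 1 was higher and 1 lower in SRC3, with 15.5 and 18% of all genes. G6pdx, the entry enzyme, was at 98.4 ± 6.3 CPM in PAR, 86.6 ± 6.72 in FRC1 and 75.7 ± 3.06 in SRC3 (SD, n = 3), lower in FRC1 (adjusted p = 0.036) and in SRC3 (9.5e-05). Rpia, which makes ribose 5-phosphate, was 1.22-fold higher in FRC1 than in PAR (0.02). Tkt, transketolase, was 1.11-fold higher in SRC3 than in FRC1 (0.036). Alternatives were not run for these genes.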
